A study of Mus musculus with 6 samples.

Results

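The 10 genes described here encode proteins that take up, carry and activate long-chain fatty acids. They are 3 fatty acid transport proteins (*Slc27a1*, *Slc27a3* and *Slc27a4*), 5 long-chain acyl-CoA synthetases (*Acsl1*, *Acsl3*, *Acsl4*, *Acsl5* and *Acsl6*) and 2 fatty acid binding proteins (*Fabp3* and *Fabp5*). They were chosen by name, by a rule that used no measured value but with earlier results of these data known, and are 10 of the 56923 genes in the count tables. All 10 were among the 19084 genes tested.

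RNA-seq was performed on prefrontal cortex of constitutive *Pla2g4e* knockout mice (KO, 3 samples) and wild-type mice (WT, 3 samples), to ask which transcripts differ in the absence of PLA2G4E, a calcium-activated enzyme of the cytosolic phospholipases that makes N-acylphosphatidylethanolamines. The knockout is constitutive. Per the methods of the study, its allele holds a cassette with *LacZ* that traps splicing, and the loss of function is predicted from this. The study also reported no PLA2G4E protein in hippocampal extracts of the knockout by Western blot, and immunostaining only in WT sections. The labels name no treatment, and give no age, sex, litter or batch. They do not say that each sample came from a different animal, so the p-values below measure the spread between these samples. The tissue was an anterior cut of the brain, and in such bulk tissue fewer cells of a type and less RNA per cell cannot be told apart.

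The libraries held 11792463 to 14594230 counted fragments. *Pla2g4e* itself was measured at 5.95, 8.12 and 7.97 CPM (counts per 1e+06, scaled between libraries) in KO and at 7.84, 11.3 and 13.2 CPM in WT. The highest KO library lay above the lowest WT library, so the groups overlapped. The log2 fold change was -0.55 (SE 0.21, limma-voom adjusted p = 0.635), and -0.39 without KO 1. Fragments on either side of the cassette are counted alike, so this value does not measure intact transcript. In each group the library numbered 1 carried *Xist* (1387 CPM in KO, 969 CPM in WT) and at most 2 fragments of any Y-linked gene examined, while the others showed the reverse. Defining markers of neurons, astrocytes and oligodendrocytes were detected, and no marker of any cell type list was at 0 in every library. The library KO 1 stood apart in a list of 7 markers of olfactory bulb neurons, chosen after the values were seen, which summed to 244 CPM there, to 43.2 and 65.9 CPM in the other KO libraries and to between 24.9 and 69.8 CPM in WT. The log2 fold change of each of the 10 genes is therefore also given without KO 1. Nothing in the genome-wide comparison passed adjustment in the limma-voom test (0 of 19084 genes, 0%), with 1492 genes (7.82%) at an unadjusted p under 0.05, against 0 adjusted calls in edgeR, 1 in DESeq2 and 23 in limma-voom with a covariate for Y-linked expression, of which none was among the 10 genes.

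Long-chain fatty acids cross the plasma membrane partly by diffusion and partly with the help of membrane proteins, and are bound in the cytosol by small fatty acid binding proteins that keep them soluble. Before a fatty acid can be built into a phospholipid, oxidised or elongated it must be joined to coenzyme A. This activation is catalysed by the ACSL enzymes, which differ in their preferred fatty acids and in their place in the cell, and by the SLC27A proteins, which combine transport with acyl-CoA synthetase activity. In brain the pathway is known above all for retaining polyunsaturated fatty acids such as docosahexaenoic acid and arachidonic acid in membranes.

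The SLC27A and ACSL proteins belong to a common superfamily of adenylate-forming enzymes and share an ATP-binding loop, whereas the FABP proteins are unrelated. The coding sequences of the loop are shown for the 8 enzymes. To locate it, translated principal transcripts were searched for the amino acids TSG, then S or T, then TG, any residue and PK (single-letter code). A stretch of 27 bases (9 codons) with this pattern was found once in each of the 8 enzymes and in neither *Fabp3* nor *Fabp5*. The sequences were read 5′ to 3′ on the coding strand from the GRCm38 reference, and capitals mark the 13 bases that are identical in all 8 genes. Most of these bases are fixed by the amino acids searched for, so their identity is not a separate finding.
Slc27a1: ACttctGGgaCcACcGGgcttCCtAAg
Slc27a3: ACctctGGcaCtACtGGcctgCCcAAg
Slc27a4: ACatcgGGcaCcACgGGgctaCCcAAa
Acsl1: ACaagtGGaaCtACaGGcaacCCcAAa
Acsl5: ACcagtGGaaCtACaGGtgacCCcAAa
Acsl6: ACaagtGGtaCaACaGGgaacCCcAAa
Acsl3: ACaagtGGgtCcACaGGaattCCaAAg
Acsl4: ACcagtGGttCtACgGGccgcCCcAAg

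The stretch lay within a single coding exon in *Slc27a1* (chr8:71580165-71580191, plus strand, exon 6), *Slc27a4* (chr2:29809682-29809708, plus strand, exon 5), *Acsl3* (chr1:78694249-78694275, plus strand, exon 7) and *Acsl4* (chrX:142343378-142343404, minus strand, exon 7). It was split by an intron in *Slc27a3* (chr3:90388476-90388705, minus strand, exons 2 and 3), *Acsl1* (chr8:46518485-46518971, plus strand, exons 9 and 10), *Acsl5* (chr19:55281486-55282483, plus strand, exons 9 and 10) and *Acsl6* (chr11:54329956-54335062, plus strand, exons 9 and 10). In all 4 of these genes the intron fell after base 16 of the stretch. The stretches of *Acsl1*, *Acsl5* and *Acsl6* were identical to each other at 22 to 24 of 27 bases. Over the whole aligned coding sequence, the closest pairs were *Slc27a1* with *Slc27a4* (65.6% identical bases), *Acsl3* with *Acsl4* (65.0%) and *Acsl1* with *Acsl6* (64.0%). *Fabp3* and *Fabp5*, of 133 and 135 codons, were 56.5% identical, whereas the 8 enzymes had 643 to 722 codons.

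To order the genes by transcript abundance, counts were divided by the summed exon length of each gene and expressed as transcripts per 1e+06 (TPM). Averaged over the 6 libraries, *Acsl3* had the highest level, 143 TPM (range 123 to 167). It was followed by *Fabp3* at 101 TPM (77.0 to 110) and *Acsl6* at 97.3 TPM (92.2 to 103). The ranges of *Fabp3* and *Acsl6* overlapped, whereas *Acsl3* lay above both in every library. A middle group was formed by *Acsl4* at 70.3 TPM (65.4 to 76.5), *Slc27a4* at 70.0 TPM (61.8 to 75.0), *Slc27a1* at 63.8 TPM (56.5 to 75.6), *Acsl5* at 57.4 TPM (49.9 to 66.0) and *Fabp5* at 46.9 TPM (40.4 to 54.2), and each of these overlapped its neighbour in the order. *Acsl1* at 19.3 TPM (17.2 to 21.2) and *Slc27a3* at 6.78 TPM (4.37 to 8.45) were the lowest, and neither range touched that of its neighbours.

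**Figure D1:**
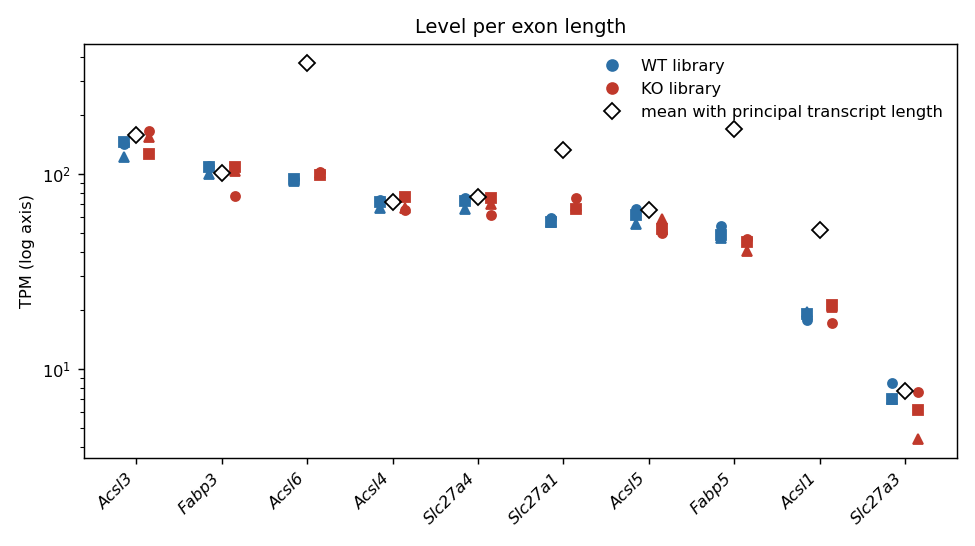
Transcript level of the 10 genes in TPM on a log axis, with 1 coloured point per KO or WT library from summed exon lengths. A diamond gives the mean when all fragments of a gene are divided by its principal transcript length. *Acsl3* lay highest at a mean of 143 TPM and *Slc27a3* lowest at 6.78 TPM, and the diamonds of *Acsl6*, *Slc27a1*, *Fabp5* and *Acsl1* lay well above their points.

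This order depends on the length assigned to each gene. The summed exons of *Acsl6* span 9914 bases but its principal transcript only 2594, and those of *Fabp5* span 3567 against 987 bases. With the principal transcript length, an alternative added after the data were seen, *Acsl6* came first at 372, then *Fabp5* at 170 and *Acsl3* at 158. Here all fragments of a gene were divided by the length of that transcript, while the scaling over all genes kept the summed exons. These values are therefore not TPM in the strict sense, and are too high where fragments come from other exons. Under either length *Slc27a3* was the lowest, at 7.72 with the principal transcript, and *Acsl1* the ninth, at 51.9 with it. Across libraries the least variable gene was *Acsl6* (coefficient of variation 4.21%) and the most variable *Slc27a3* (20.6%), which was also the gene with the fewest fragments, 37 to 75 per library.

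Between KO and WT, none of the 10 genes passed adjustment over all genes tested (0 of 10 in the limma-voom test, and 0 of 10 also in edgeR and in DESeq2). Before adjustment the p-value was below 0.05 for *Slc27a1*, which was higher in KO (1 of 10, beside 4.38% of all genes tested), and for *Acsl5* and *Fabp5*, which were lower (2 of 10, beside 3.44%). This is 3 of 10 genes, beside 7.82% of all genes tested. The CPM of the groups did not overlap for *Slc27a1* and *Acsl6*, both higher in KO (2 of 10, beside 6.72%), and *Fabp5*, lower in KO (1 of 10, beside 6.29%), in all 3 of 10 genes beside 13% of all genes tested. Log2 fold changes were above 0 for 4 and below 0 for 6 of the genes, with a median of -0.07, against 51.9% above 0 and a median of 0.01 over all genes. With so few genes these shares are a description of the group only.

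**Figure D2:**
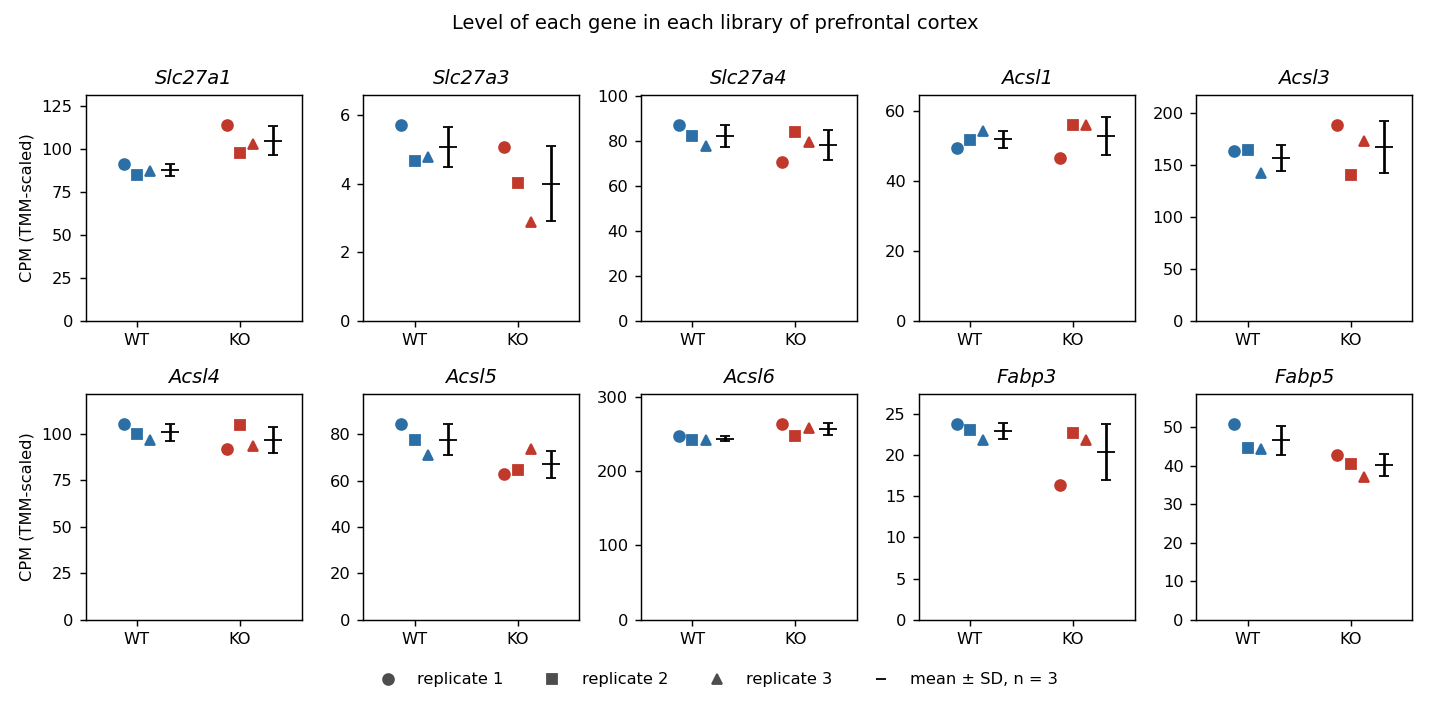
Level of each of the 10 genes in CPM, with 1 point per library (symbols give the replicate number) and, beside the points, the mean ± SD of the 3 libraries of a group. The KO and WT points of *Slc27a1*, *Acsl6* and *Fabp5* did not overlap, and those of the other genes did.

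The fatty acid transport proteins were examined first. *Slc27a1* (ENSMUSG00000031808.8, chromosome 8, 72021526 to 72039946, plus strand, GRCm39) encodes FATP1, which takes up long-chain fatty acids and converts them to acyl-CoA. Its level was 114, 97.5 and 103 CPM in KO, against 91.4, 84.8 and 87.4 CPM in WT. Every KO library lay above every WT library, and KO 1 was the highest. The mean was 105 ± 8.58 CPM in KO and 87.9 ± 3.32 CPM in WT (SD, n = 3 each), a 1.19-fold difference (log2 0.25, SE 0.08, 95% interval 0.09 to 0.42). The unadjusted p of 0.00523 placed it at rank 104 of the genes tested, and the limma-voom adjusted p was 0.635. Its log2 fold change ranged from 0.19 to 0.30 over 16 alternative analyses, the lower value being that without KO 1, and the unadjusted p remained below 0.05 in 16 of 16, while the adjusted p stayed between 0.234 and 0.999.

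*Slc27a4* (ENSMUSG00000059316.3, chromosome 2, 29692646 to 29707534, plus strand) encodes FATP4, a widely expressed transport protein that prefers very long-chain substrates. In prefrontal cortex it was measured at 70.7, 83.8 and 79.4 CPM in KO, against 87.2, 82.1 and 77.5 CPM in WT. KO 1 was the lowest and WT 1 the highest of the 6 libraries, and the other four were interspersed. KO differed from WT by -0.08 on the log2 scale (SE 0.08, 95% interval -0.26 to 0.09, limma-voom adjusted p = 0.786). This difference was -0.01 without KO 1 and 0.03 without both libraries numbered 1, and it ran from -0.14 to 0.03 over the 16 alternatives. On the linear scale the means were 78.0 ± 6.65 and 82.2 ± 4.85 CPM (SD, n = 3 each), so the difference was smaller than the spread within KO.

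*Slc27a3* (ENSMUSG00000027932.15, chromosome 3, 90292546 to 90297245, minus strand) encodes FATP3, which has acyl-CoA synthetase activity. It was counted at 75, 48 and 37 fragments in KO, against 73, 57 and 61 fragments in WT, that is 5.07, 4.02 and 2.89 CPM against 5.72, 4.67 and 4.79 CPM. The KO libraries spanned a wider range than WT, with KO 1 inside the WT range and the other two below it. The log2 fold change of -0.35 (SE 0.22, 95% interval -0.84 to 0.13) had a limma-voom adjusted p of 0.683. It was -0.57 without KO 1 (unadjusted p = 0.0381 in limma-voom) and -0.14 without KO 3, so that the size of the difference rested on single libraries at this depth.

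Of the 5 long-chain acyl-CoA synthetases, 3 had a log2 fold change above 0 and 2 below 0, beside 51.9% of all genes above 0. None of the 5 passed adjustment, and the signs of *Acsl1*, *Acsl3* and *Acsl4* turned in some alternatives. *Acsl6* (ENSMUSG00000020333.18, chromosome 11, 54194624 to 54255582, plus strand) encodes a synthetase abundant in brain and known for enriching the brain in docosahexaenoic acid. It had the highest CPM of the 10 genes, with 264, 247 and 258 in KO beside 247, 242 and 242 in WT. The lowest KO library (247.4 CPM) was barely above the highest WT library (247.2 CPM). The log2 fold change was 0.07 (SE 0.06, 95% interval -0.06 to 0.20, limma-voom adjusted p = 0.745), and 0.05 without KO 1.

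*Acsl5* (ENSMUSG00000024981.7, chromosome 19, 55240370 to 55286152, plus strand) encodes a synthetase found on mitochondria and the endoplasmic reticulum. It was measured at 62.9, 64.4 and 73.7 CPM in KO, against 84.6, 77.4 and 71.3 CPM in WT. All but one KO library lay below the WT range, and KO 3 exceeded WT 3. The mean was 67.0 ± 5.88 CPM in KO and 77.7 ± 6.66 CPM in WT (SD, n = 3 each), a ratio of 0.861 (log2 -0.22, SE 0.09, 95% interval -0.40 to -0.03, unadjusted p = 0.0279, limma-voom adjusted p = 0.635). The unadjusted p was below 0.05 in 11 of 16 alternatives, and the log2 fold change ran from -0.29 to -0.11. Without KO 1 it was -0.17 (unadjusted p = 0.0936 in limma-voom).

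*Acsl3* (ENSMUSG00000032883.16, chromosome 1, 78635542 to 78685460, plus strand) encodes a synthetase of the endoplasmic reticulum and of lipid droplets, where it takes part in droplet formation. Its level was 189, 140 and 173 CPM in KO, against 164, 164 and 142 CPM in WT. KO contained both the highest and the lowest of the 6 libraries. The log2 fold change of 0.09 (SE 0.10, 95% interval -0.13 to 0.31, limma-voom adjusted p = 0.814) was -0.00319 without KO 1 and 0.21 without KO 2 (unadjusted p = 0.0394). Of its exon bases 244 (5.60%) are shared with *Utp14b* on the same strand, where fragments were not counted for either gene.

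*Acsl4* (ENSMUSG00000031278.13, chromosome X, 141100989 to 141173531, minus strand) encodes the synthetase known for its preference for arachidonic acid. It was measured at 91.7, 105 and 93.2 CPM in KO, against 105, 99.9 and 96.5 CPM in WT. The lowest of these values came from KO 1 and the highest from WT 1, the libraries that carried *Xist*, so this X-linked gene did not follow the *Xist* split. Its log2 fold change was -0.06 (SE 0.07, 95% interval -0.22 to 0.10, limma-voom adjusted p = 0.823), and it was -0.03 without KO 1, 0.00693 without both libraries numbered 1 and -0.13 without KO 2.

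*Acsl1* (ENSMUSG00000018796.14, chromosome 8, 46924074 to 46989088, plus strand) encodes a synthetase that is abundant in liver, heart and fat. Here it was measured at 46.6, 56.2 and 55.9 CPM in KO, against 49.5, 51.7 and 54.5 CPM in WT. The KO range enclosed the WT range. With a log2 fold change of 0.02 (SE 0.09, 95% interval -0.17 to 0.21, limma-voom adjusted p = 0.965) it was the least different of the 10 genes, and its sign changed with the library left out, with 0.11 without KO 1.

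The fatty acid binding proteins were both lower on average in KO. *Fabp5* (ENSMUSG00000027533.11, chromosome 3, 10077608 to 10081667, plus strand) encodes the epidermal form, which in brain carries docosahexaenoic acid and N-acylethanolamines. Its level was 42.9, 40.5 and 37.1 CPM in KO, against 51.0, 44.6 and 44.4 CPM in WT. Every KO library lay below every WT library, with a gap of under 2 CPM between the nearest. The mean was 40.2 ± 2.90 CPM in KO and 46.6 ± 3.74 CPM in WT (SD, n = 3 each), a ratio of 0.863 (log2 -0.21, SE 0.09, 95% interval -0.40 to -0.02, unadjusted p = 0.0315, limma-voom adjusted p = 0.635). The unadjusted p was below 0.05 in 11 of 16 alternatives, with log2 fold changes from -0.27, the value without KO 1, to -0.15.

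*Fabp3* (ENSMUSG00000028773.9, chromosome 4, 130202388 to 130209256, plus strand) encodes the heart form, which in brain is found in neurons and binds arachidonic acid. It was measured at 16.4, 22.7 and 21.9 CPM in KO, against 23.8, 23.1 and 21.9 CPM in WT. KO 1 was the lowest library, and the other KO libraries were close to WT. The difference was -0.20 on the log2 scale (SE 0.12, 95% interval -0.47 to 0.07, limma-voom adjusted p = 0.681), and it was -0.04 without KO 1. Both genes have processed pseudogenes, and fragments that map to several places were not counted, so their levels may be understated.

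**Figure D3:**
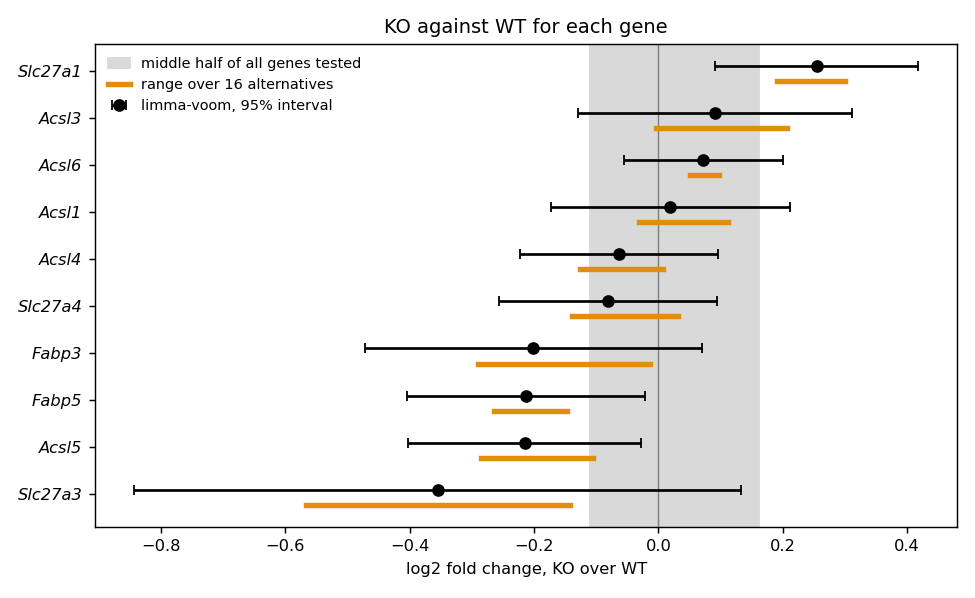
Log2 fold change (KO over WT) of the 10 genes as points with 95% intervals from the limma-voom fit, with orange bars for the range over the 16 alternatives and grey shading for the range between the lower and upper quartile of all genes tested. The intervals of *Slc27a1*, *Acsl5* and *Fabp5* lay away from 0, and none of the 10 passed adjustment over 19084 genes.

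The makeup of each family was then compared within libraries, which removes the scaling between libraries. With 3 against 3 libraries the exact permutation test cannot give a p below 0.1, so none of these shares could pass 0.05. The shares of a family add up to the whole, so a higher share of 1 gene lowers those of the others. *Slc27a1* made up 52.1%, 44.9% and 48.0% of the summed TPM of the 3 transport protein genes in KO, and 41.6%, 41.6% and 43.6% in WT. *Slc27a4* made up 42.6%, 50.95% and 49.0% in KO, and 52.5%, 53.2% and 51.03% in WT. Which of the pair was the larger depended on the length used, with all fragments of a gene taken under either length. With summed exons *Slc27a4* was the larger in every library but KO 1, and with principal transcripts *Slc27a1* was the larger in all 6, at 64.1% ± 3.33 in KO and 58.3% ± 1.12 in WT. The share of *Slc27a1* was 6.07 percentage points higher in KO (exact permutation p = 0.1, two-sided, adjusted over 10 shares p = 0.333) and the difference for *Slc27a4* was -4.73 points with the same p (mean 47.5% ± 4.34 against 52.3% ± 1.12). Without KO 1 the differences were 4.17 and -2.29 points, and with principal transcript lengths, added after the data were seen, 5.79 and -4.65 points. For *Slc27a3* the difference was -1.34 points (exact permutation p = 0.2, adjusted p = 0.5), and the groups overlapped. With principal transcript lengths it was -1.13 points, without overlap (exact permutation p = 0.1).

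Among the synthetases, *Acsl3* took 37.9% ± 3.89 of the summed TPM in KO and 35.9% ± 1.37 in WT, and *Acsl6* 25.6% ± 0.565 and 24.6% ± 1.03. This order too turned with the length, since with principal transcripts *Acsl6* took 52.4% ± 0.667 and 51.0% ± 1.16 and *Acsl3* 22.4% ± 2.52 and 21.5% ± 1.18. The share of *Acsl5* was 12.4%, 13.9% and 14.7% in KO, against 16.7%, 15.7% and 15.5% in WT. These values did not overlap, and KO minus WT was -2.298 points (exact permutation p = 0.1, adjusted p = 0.333). For *Acsl1*, *Acsl3*, *Acsl4* and *Acsl6* the exact p lay between 0.3 and 0.9. Of the summed TPM of the binding proteins, *Fabp3* took 62.4%, 70.8% and 71.9% in KO, against 67.0%, 69.2% and 68.2% in WT (exact permutation p = 1.0). KO 1 lay below and the other KO libraries above every WT library, so that the difference of 0.277 points became 3.25 points without KO 1. With principal transcripts *Fabp5* was the larger of the pair, at 62.3% ± 5.41 in KO and 62.9% ± 1.18 in WT.

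**Figure D4:**
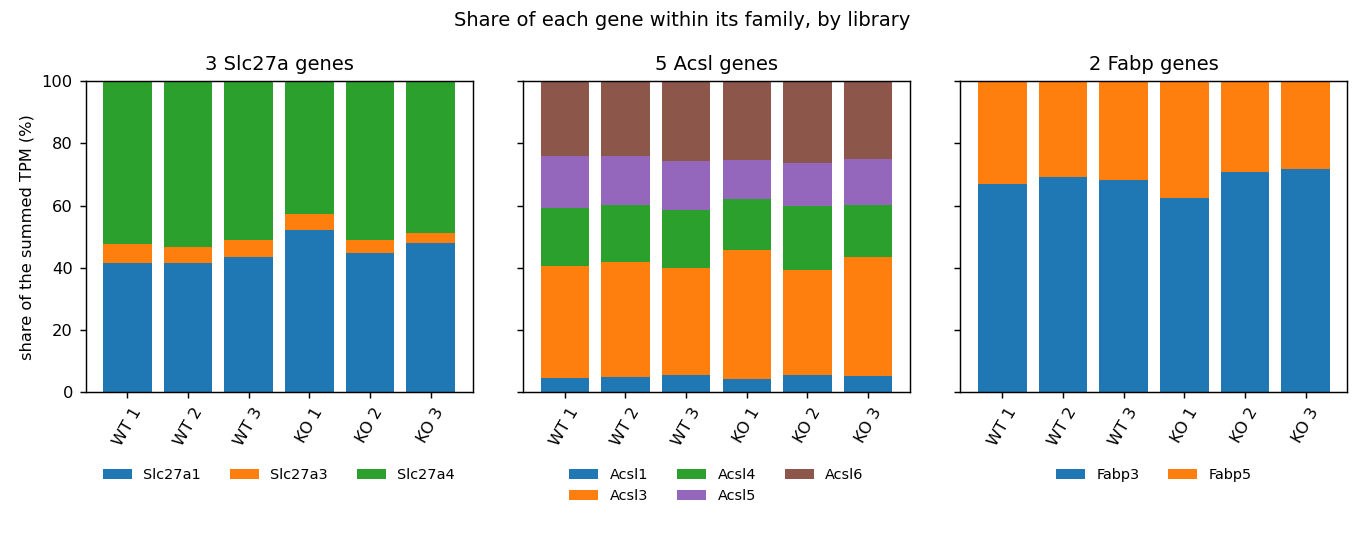
Share of each gene in the summed TPM of its family, in percent, as 1 stacked bar per library. The KO and WT shares did not overlap for *Slc27a1* (higher in KO), *Slc27a4* and *Acsl5* (lower in KO). Shares within a family are not independent, and the CPM of *Slc27a4* and *Acsl5* overlapped between the groups.

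To see how the genes varied together, the log2 CPM of each was centred on its mean over the 6 libraries. WT 1 held the highest value of 6 of the 10 genes and the lowest of none. KO 1 held the lowest value of 5 (*Slc27a4*, *Acsl1*, *Acsl4*, *Acsl5* and *Fabp3*) and the highest value of 3 (*Slc27a1*, *Acsl3* and *Acsl6*). These libraries carry *Xist*, and KO 1 is the library with raised olfactory bulb markers. The 6 markers of leptomeningeal fibroblasts summed to 118 CPM in WT 1, to 52.0 and 75.3 CPM in the other WT libraries and to 85.8 to 92.5 CPM in KO. The 7 microglia markers summed to 371 CPM in WT 1, to 308 and 341 CPM in the other WT libraries and to 319 to 337 CPM in KO. The part of any of these in the values of the 10 genes was not tested. Of the 45 pairs of genes, the closest patterns over the 6 libraries were those of *Slc27a1* with *Acsl6*, *Slc27a4* with *Fabp3*, *Slc27a3* with *Fabp5*, and *Slc27a4* with *Acsl4*. As a description over 6 libraries that share their group, sex-linked split and depth, Pearson's coefficient was 0.971, 0.928, 0.919 and 0.887 for these pairs, and -0.803 for *Slc27a1* with *Fabp3*, the most opposed pair. Among the 10850 genes of mean log2 CPM 3 or more, the patterns most like that of *Slc27a4* were those of *Tmem250-ps* (Pearson's coefficient 0.9995), *Prkag2* (0.988) and *Rgs2* (0.987), again over 6 libraries. These are the top of a search over many genes with few libraries, where high coefficients arise easily, so they describe these libraries only.

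**Figure D5:**
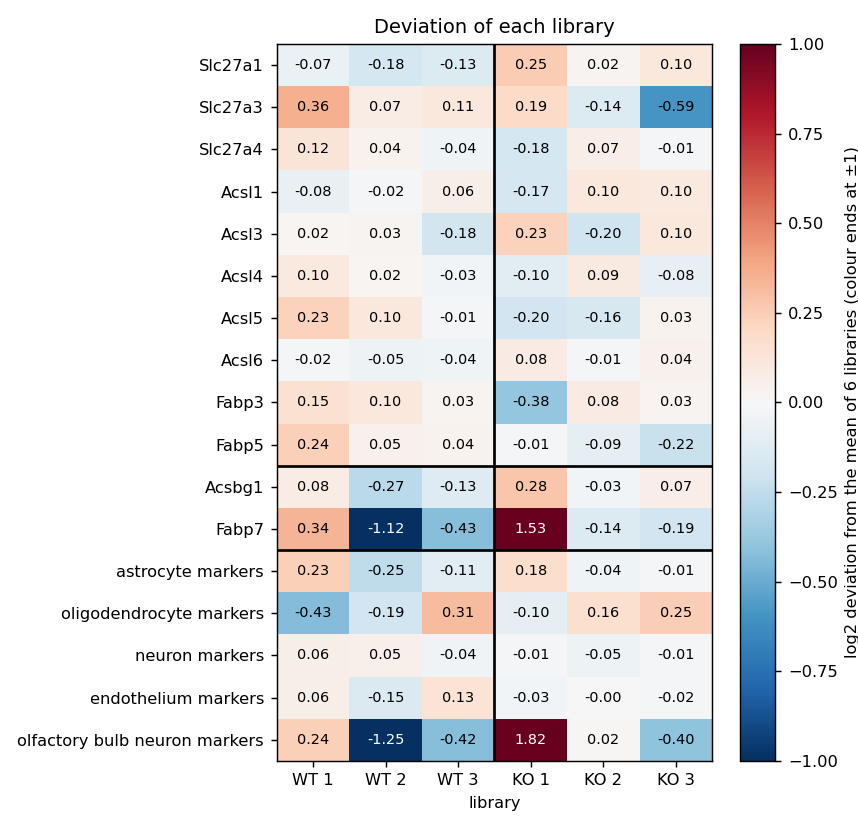
Deviation from the mean over the 6 libraries, in log2 CPM, for each of the 10 genes, *Acsbg1*, *Fabp7* and the mean of 5 marker lists, with colour ending at ±1. KO 1 held the extreme value of 8 of the 10 genes, highest in 3 and lowest in 5, and WT 1 the highest of 6.

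The promoters of *Slc27a1* and *Acsl6* are shown because these genes had the closest pattern of all pairs and both were higher in each KO library than in any WT library. The 250 bases before the most upstream RefSeq start site (GRCm38.p6) were read on the plus strand. Capitals mark matches, on either strand, to the letters searched. These were AGGTCA, the half-site of nuclear receptors, and AGGTCANAGGTCA, the spaced pair of half-sites called DR1 that PPAR receptors bind and that contains the half-site. Further letters searched were CACGTG, known as the E-box, and TATAAA, known as the TATA box, as well as CCAAT, known as the CAAT box, and GGGCGG, known as the GC box.
Slc27a1, chr8:71568621-71568870: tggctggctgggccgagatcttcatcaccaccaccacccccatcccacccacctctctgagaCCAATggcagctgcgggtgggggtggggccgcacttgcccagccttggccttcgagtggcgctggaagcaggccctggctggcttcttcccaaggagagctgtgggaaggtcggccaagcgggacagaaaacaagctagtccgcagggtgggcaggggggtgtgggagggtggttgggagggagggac
Acsl6, chr11:54303574-54303823: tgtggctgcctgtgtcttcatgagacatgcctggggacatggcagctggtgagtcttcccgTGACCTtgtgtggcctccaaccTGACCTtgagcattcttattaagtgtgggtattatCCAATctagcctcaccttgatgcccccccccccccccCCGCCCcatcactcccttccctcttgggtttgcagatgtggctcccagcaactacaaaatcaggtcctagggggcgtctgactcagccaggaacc

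Counted from the first base shown, the *Slc27a1* window held CCAAT at position 63. The *Acsl6* window held the half-site on the minus strand at positions 62 and 84, CCAAT at 119 and the GC box on the minus strand at 156. Of the letters searched, CCAAT was in both windows shown, and it is present in 37.4% of 32544 mouse promoter windows of the length listed in RefSeq, 250 bases before to 50 after a start. AGGTCA is present in 16.2% of these windows and GGGCGG in 35.9%. DR1 is present in 13 of them and was in none of the 14 windows of the 9 members with an entry. RefSeq lists 3 windows for each of these genes, and over all of them the GC box was also found in both genes. These matches describe the letters only.

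Of the relatives of these genes, *Acsbg1*, an acyl-CoA synthetase of the bubblegum family known from astrocytes, had a level close to that of *Acsl3* (127 TPM on average). It was measured at 144, 116 and 124 CPM in KO, against 125, 98.3 and 108 CPM in WT, which overlapped. The log2 fold change was 0.21 (SE 0.10, unadjusted p = 0.048, limma-voom adjusted p = 0.636) and 0.13 without KO 1. *Fabp7*, the brain-type binding protein of radial glia and astrocytes, was at 72.1, 22.6 and 21.9 CPM in KO, against 31.6, 11.5 and 18.5 CPM in WT. KO 1 was far above every other library, and the summed olfactory bulb markers were likewise highest in KO 1, next in WT 1 and lowest in WT 2. The part of olfactory bulb tissue in this value was not tested. Its log2 fold change was 0.84 (SE 0.44, limma-voom adjusted p = 0.647) and 0.23 without KO 1, whereas with a covariate for Y-linked expression it was 0.88 with an adjusted p of 0.0268 in limma-voom. *Slc27a2* was low, at 4.46 ± 0.514 CPM in KO beside 4.85 ± 0.276 CPM in WT (SD, n = 3 each), and *Slc27a5* had at most 6 fragments in any library. *Slc27a6* and *Fabp4* had too few fragments to be tested. *Acsbg2*, *Fabp1*, *Fabp2*, *Fabp6*, *Fabp9* and *Fabp12* had none.

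The steps before and after activation were summarised by 8 lists of 124 genes, of which 112 were tested. None passed adjustment in limma-voom without covariates, edgeR or DESeq2, and 1 did with the Y-linked covariate (*Fabp7*). Of the genes tested, 4 of 112 (3.57%) had an unadjusted p under 0.05, beside 7.82% of all genes. This number was 1, *Elovl1*, without KO 1 (beside 4.44% of all genes), 2 in DESeq2 (4.73%) and 2 with edgeR's own filter of low genes (8.34%). It was 7 with a block for replicate number (8.87%) and 8 with the Y-linked covariate (10.6%). The groups did not overlap for 11 of 112 genes (9.82%), beside 13% of all genes. Fold changes were above 0 for 56 genes and below 0 for 56. In mitochondrial import and beta-oxidation, 12 of 19 genes were higher, beside 51.9% of all genes, with 0 at an unadjusted p under 0.05, beside 7.82%. With so few genes this count does not set the list apart. *Acads*, the short-chain acyl-CoA dehydrogenase, was at 6.34 ± 0.566 against 5.27 ± 0.335 CPM without overlap (unadjusted p = 0.129 in limma-voom). The medium-chain enzyme *Acadm* was at 31.7 ± 1.30 against 28.8 ± 3.65 CPM with overlap, and its log2 fold change of 0.15 was 0.04 without WT 2. In peroxisomal import and beta-oxidation, 4 of 12 genes were higher and 8 lower, beside 51.9% of all genes higher. The peroxisomal thiolase *Acaa1a* was higher, at 61.0 ± 2.85 against 53.6 ± 3.41 CPM (log2 0.19, unadjusted p = 0.0298, limma-voom adjusted p = 0.635). The racemase *Amacr*, which prepares branched chains for oxidation, was lower without overlap, at 6.84 ± 0.505 against 8.40 ± 1.09 CPM (log2 -0.29, unadjusted p = 0.0863 in limma-voom, and log2 -0.19 without WT 2). Among the lysophospholipid acyltransferases, which place acyl-CoA into phospholipids, 5 of 14 were higher and 9 lower, beside 51.9% of all genes higher. *Mboat7*, which places arachidonic acid into phosphatidylinositol, was at 167 ± 5.43 against 190 ± 16.7 CPM (log2 -0.18, unadjusted p = 0.028, limma-voom adjusted p = 0.635), and *Agpat1*, which makes phosphatidic acid, at 111 ± 4.02 against 121 ± 7.60 CPM with overlap (log2 -0.12, and -0.07 without WT 1).

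Of the acyl-CoA binding proteins and thioesterases, 8 of 18 were higher and 10 lower, beside 51.9% of all genes higher, which does not set this list apart. The brain thioesterase *Acot7*, which releases fatty acids from acyl-CoA, was at 173 ± 10.3 against 199 ± 28.9 CPM with overlapping groups, and its log2 fold change of -0.19 was -0.32 without WT 3 and -0.11 without WT 1. The thioesterase *Acot11* went the other way, at 47.2 ± 7.05 against 40.7 ± 5.36 CPM, also with overlap, and its log2 fold change of 0.22 was 0.09 without KO 1. *Acbd7*, named after its values were seen, had an unadjusted p of 0.0391 on 16, 8 and 5 fragments in KO, beside 4, 0 and 5 fragments in WT. Elongases and desaturases were divided, 12 of 23 being higher, beside 51.9% of all genes. *Elovl1*, an elongase of very long chains, was at 17.8 ± 1.10 against 15.2 ± 0.489 CPM and the desaturase *Scd3* at 3.30 ± 0.246 against 4.37 ± 0.218 CPM, both without overlap. Their unadjusted limma-voom p was 0.0609 and 0.059. In this list 3 of 23 genes did not overlap, a share of 13% beside 13% of all genes. Of the nuclear receptors and coactivators, 7 of 10 were higher, beside 51.9% of all genes. An unadjusted p under 0.05 was found for 0 of 10, beside 7.82%. Groups did not overlap for 2 of 10, both higher in KO, beside 6.72% of all genes. These were the fatty acid receptors *Ppara* (2.84 ± 0.250 against 2.15 ± 0.195 CPM) and *Pparg* (6.13 ± 0.609 against 4.99 ± 0.245 CPM), at 24 to 101 fragments per library, with limma-voom adjusted p of 0.672 and 0.653. In the list of other uptake and release proteins 0 of 12 genes had an unadjusted p under 0.05, beside 7.82% of all genes, a number too small to set this list apart. The lowest p in it was that of the lipase *Pnpla2* (log2 0.15), whose sign depended on KO 1 (-0.08 without it), followed by the caveolar protein *Cav1* (log2 -0.11, and -0.21 without KO 1).

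The summed markers of the main cell types are given beside these values. The 9 neuron markers summed to 10170 to 11300 CPM in KO and 10960 to 12020 CPM in WT, with 7 of 9 lower and 2 of 9 lower at an unadjusted p under 0.05, beside 3.44% of all genes. The 9 astrocyte markers summed to 4815 to 5313 CPM in KO and 4539 to 5278 CPM in WT, with 9 of 9 log2 fold changes above 0, beside 51.9% of all genes, and 0 of 9 at an unadjusted p under 0.05, beside 7.82%. The mean CPM of *Gfap* was nonetheless lower in KO (139 against 155), its highest library being WT 1 with 329 CPM. The 8 oligodendrocyte markers summed to 2233 to 2594 CPM in KO and 1735 to 2870 CPM in WT, with 8 of 8 higher, beside 51.9% of all genes, and 0 of 8 at an unadjusted p under 0.05, and the 7 endothelial markers to 219 to 237 and 207 to 262 CPM. The 9 markers of striatal neurons, a neighbouring tissue of an anterior cut, summed to 341 to 448 CPM in KO and 255 to 426 CPM in WT, with 9 of 9 higher (median log2 0.28) and 1 of 9, *Penk*, at an unadjusted p under 0.05, beside 4.38% of all genes. The part of cell makeup or dissection in the values of the 10 genes was not tested.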

How the data were processed

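Prefrontal cortex RNA of 3 KO and 3 WT samples was compared, with groups taken from the sample titles. Each deposited table holds raw counts of fragments per gene for 1 sample. The authors aligned reads with STAR 2.7.9a and, per the file headers, counted exon fragments with featureCounts 1.6.0, reverse-stranded, on GENCODE M31 (GRCm39). The study's methods name the previous assembly. Fragments mapping to several places or several genes were not counted.

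Genes with at least 6 fragments in at least 1 library were tested (19084). TMM scaling in edgeR 4.0.16 and voom with limma 3.58.1 under R 4.3.3 were used without covariates and two-sided (the study's methods name edgeR, voom, limma and this filter), p-values being adjusted by Benjamini-Hochberg over every gene tested (threshold 0.05). On simulated data the fit recovered 96% of 2-fold and 100% of 4-fold changes, with 8.84% false calls. All members differed by less than 2-fold, so this recovery does not describe how well such differences would be found. Alternatives included edgeR's quasi-likelihood test and DESeq2 1.42.0. TPM used the summed exon lengths in the files. Symbols came from GENCODE M21 by gene identifier. Sequences came from the GRCm38 genome with GENCODE M21 and from RefSeq promoters (9 of 10 members matched).

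The members and lists were chosen with earlier results of these data known. Named genes were the members, *Pla2g4e*, family relatives, the 2 genes of lowest p per list of mean log2 CPM 0 or more, and the 3 genes most like *Slc27a4*.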

Additional observations from a re-analysis of the deposited data

How the results depend on the processing

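Libraries of 11792463 to 14594230 fragments leave low genes such as *Slc27a3* with wide intervals. The number of members past the adjusted threshold was 0 under each of the 16 alternatives, and *Slc27a1* kept an unadjusted p under 0.05 in 16 of 16. For all genes, adjusted calls were 1 in DESeq2, 23 with a Y-linked covariate, 3 without both libraries numbered 1, and 0 to 1 when leaving out 1 library. The Y-linked covariate gave 1 adjusted call in the pathway lists, *Fabp7* (log2 0.88, adjusted p = 0.0268). The cause was not tested. Members at an unadjusted p under 0.05 numbered 1 without both libraries numbered 1, and 1 to 3 when leaving out 1 library, the 1 being *Slc27a1* without WT 1. *Acsl5* missed this threshold without KO 1, KO 2, WT 1, WT 2 or both numbered 1, and *Fabp5* without KO 2, KO 3, WT 1 or both numbered 1 and with library totals only, while *Slc27a3* passed it without KO 1 and *Acsl3* without KO 2. Without both numbered 1, the log2 fold change of *Slc27a4* was 0.032, of *Acsl4* 0.00693 and of *Pnpla2* -0.0941. Leaving out 1 library gave -0.00319 to 0.206 for *Acsl3*, -0.0317 to 0.112 for *Acsl1* and -0.0759 to 0.297 for *Pnpla2*, and differences in share of -0.253 to 0.433 points for *Acsl1*, -1.47 to 3.25 for *Fabp3* and -3.25 to 1.47 for *Fabp5*. With principal transcript lengths the *Acsl1* difference in share was -0.0288 points, and the other 9 shares kept their sign. The labels do not say whether replicate numbers pair the samples, and so few libraries cannot settle it. Deviations from the group means correlated at 0.267, 0.06 and -0.02 between KO and WT libraries of the same number. Both libraries numbered 1 carried *Xist*. With a replicate block 3 members had an unadjusted p under 0.05 and 0 an adjusted one.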
